A study of Danio rerio with 4 samples.

Results

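The 9 genes described here make, bind and break down retinoic acid in the zebrafish embryo. They were chosen by name, by a rule that used no measured value, although earlier results of these data were known. The 9 are aldh1a2, aldh1a3, cyp26a1, cyp26b1, cyp26c1, dhrs3a, crabp1a, crabp2a and crabp2b. All 9 were found, each under a single Ensembl identifier, among the 26812 genes of the deposited table, and all 9 are listed as protein-coding. The table holds the mRNA of whole embryos, sequenced in 4 libraries: embryos labelled Kdm5a-KO and WT embryos at 24 hours post fertilization (hpf), and embryos labelled Kdm5a-KO and WT embryos at 48 hpf. With 1 library in each of these groups, no difference below is backed by replicates and none was tested.

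KDM5A removes methyl groups from lysine 4 of histone H3, a mark of active promoters, and the series asks what its loss does to gene expression. Its gene was targeted with CRISPR/Cas9. The labels describe embryos from matings of KO fish, the titles abbreviate the group as mo without an explanation, and the study's methods describe pooled embryos injected into the yolk with an sgRNA and a Cas9 plasmid, in which cells of 1 embryo may carry different edits or none. Neither source used here names an allele or a wild-type strain. The 4 columns of the table carry a letter and a number, which were read as K for Kdm5a-KO, C for the WT control, 1 for 24 hpf and 2 for 48 hpf. This reading is an inference, and every direction given below rests on it.

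Retinoic acid is made from vitamin A. Retinol is oxidised to retinaldehyde, and the aldehyde dehydrogenases of the aldh1a family turn retinaldehyde into retinoic acid, which enters the nucleus and switches genes on through the receptors RAR and RXR. The cyp26 enzymes oxidise retinoic acid so that it is cleared, and cells with cyp26 act as sinks. In the vertebrate embryo, synthesis in the somites and breakdown in the head and tail leave a graded signal that places the segments of the hindbrain and spinal cord, and further sources and sinks divide the eye. Too much and too little retinoic acid both disturb this pattern, and the signal feeds back on its own genes: cyp26a1 and dhrs3 are themselves induced by retinoic acid.

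Facts of the whole series bear on the values as follows. Depth was read from the steps of the FPKM values and lay between 7441797 mapped reads in the WT library of 24 hpf and 15922314 in the KO-labelled library of 48 hpf. In the WT library of 24 hpf, 12.1% of the reads came from ribosomal RNA genes and their close neighbours, against 0.290% to 0.432% in the other 3 libraries. FPKM (mapped fragments scaled to gene length and library total) were therefore also rescaled by median ratios, over the 14596 genes that reached 1 FPKM in every library. This lowers the log2 of each plain FPKM ratio of KO-labelled to WT by 0.27 at 24 hpf and by 0.01 at 48 hpf, and log2 ratios of FPKM plus 1 by less in weakly expressed genes. The targeted gene, KDM5A, had 20.3 FPKM in the KO-labelled library and 13.8 FPKM in the WT library at 24 hpf, and 16.3 FPKM in the KO-labelled library and 18.1 FPKM in the WT library at 48 hpf. At 48 hpf its ratio of KO-labelled to WT was 0.902 (95% exact interval 0.823 to 0.987). At 24 hpf its mRNA was higher, not lower, in the KO-labelled library, with a ratio of 1.47 (1.30 to 1.66). After rescaling the ratio of 24 hpf was 1.22 (1.08 to 1.38). The KDM5A entry lies on a scaffold outside the numbered chromosomes, and whether it covers the edited site was not examined. The higher mRNA goes against the label at that time, although an edit by Cas9 need not lower an mRNA. The libraries are therefore called KO-labelled. Genes of the tailbud and of the lens were used to check the time points: 11 of 11 tailbud genes were lower and 9 of 9 lens genes higher at 48 hpf than at 24 hpf, in both the KO-labelled and the WT embryos.

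The levels of the 9 genes spanned a wide range within each library. FPKM corrects for gene length, so levels can be set beside each other between genes. The most abundant was crabp2a, which codes for a cytoplasmic protein that in mammals carries retinoic acid to its receptors. It had 88.7 FPKM in the KO-labelled library and 40.2 FPKM in the WT library at 24 hpf, and 57.4 FPKM and 27.2 FPKM in the KO-labelled and WT libraries at 48 hpf. It ranked first among the 9 in every library except the WT library of 48 hpf, where crabp1a had 29.7 FPKM and the intervals of both genes overlapped (26.9 to 32.7 FPKM for crabp1a and 25.6 to 28.9 FPKM for crabp2a, 95% Poisson intervals of their reads). At the other end, crabp1a was the lowest of the 9 at 24 hpf, with 0.467 FPKM from 6 reads in the KO-labelled library and 0.154 FPKM from 1 read in the WT library. All other members had at least 44 reads in every library.

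**Figure D1:**
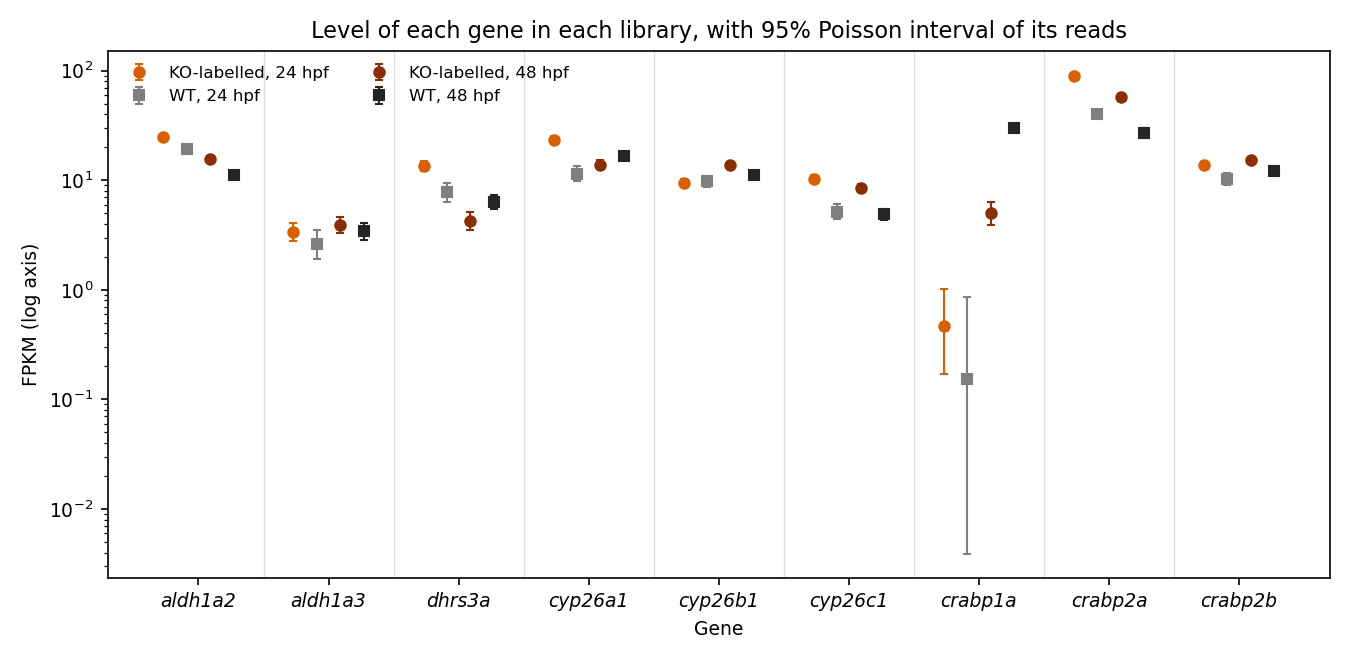
FPKM of each of the 9 genes (log axis) in the KO-labelled and WT libraries of 24 hpf and 48 hpf, with bars for the 95% Poisson interval of the reads of that library. The crabp1a points span the widest range, from 0.154 FPKM in the WT library of 24 hpf to 29.7 FPKM in the WT library of 48 hpf.

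The enzymes of synthesis came first. The gene aldh1a2 (ENSDARG00000053493, chromosome 7) codes for the main retinaldehyde dehydrogenase of the early embryo, active in the somites and the trunk mesoderm. It had 25.0 FPKM in the KO-labelled library against 19.5 FPKM in the WT library at 24 hpf, a ratio of 1.28 (95% exact interval 1.16 to 1.42). At 48 hpf it had 15.7 FPKM in the KO-labelled library against 11.3 FPKM in the WT library, a ratio of 1.39 (1.26 to 1.54). The KO-labelled library was thus the higher one at both times, by more than the counting error of the reads. After rescaling the interval at 24 hpf reached below 1, with a ratio of 1.06 (0.963 to 1.18), while that at 48 hpf stayed above 1, at 1.38 (1.25 to 1.53). The intervals, by the Clopper-Pearson method, take in the counting error of the reads but not the variation between clutches or preparations.

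The second synthesis gene, aldh1a3 (ENSDARG00000076933, chromosome 7), serves the ventral retina among other sites and was low throughout. Its FPKM was 3.40 in the KO-labelled library and 2.62 in the WT library at 24 hpf, and 3.90 in the KO-labelled library and 3.43 in the WT library at 48 hpf. The ratios of 1.30 (0.909 to 1.88) at 24 hpf and 1.14 (0.885 to 1.46) at 48 hpf could not be told from 1 with 44 to 140 reads a library. The gene aldh1a2 made up 88.0% of the FPKM of both synthesis genes in the KO-labelled library and 88.1% in the WT library at 24 hpf, and 80.1% and 76.7% in the KO-labelled and WT libraries at 48 hpf.

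Upstream of synthesis, dhrs3a (ENSDARG00000044982, chromosome 23) codes for a reductase that returns retinaldehyde to retinol and so withholds the substrate. It had 13.5 FPKM in the KO-labelled library against 7.80 FPKM in the WT library at 24 hpf, a ratio of 1.73 (1.38 to 2.18). At 48 hpf the order was the opposite, with 4.26 FPKM in the KO-labelled library against 6.36 FPKM in the WT library, a ratio of 0.671 (0.526 to 0.854). Both differences exceeded the counting error, and they did so after rescaling too, with ratios of 1.43 (1.14 to 1.81) and 0.665 (0.521 to 0.847). The KO-labelled library of 24 hpf held the highest level of the 4 libraries and the KO-labelled library of 48 hpf the lowest.

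Among the breakdown enzymes, cyp26a1 (ENSDARG00000033999, chromosome 12), the sink of the tailbud and the anterior embryo and the member most directly induced by retinoic acid, showed the same reversal between times as dhrs3a. Its FPKM was 23.2 in the KO-labelled library against 11.5 in the WT library at 24 hpf, from 642 reads and 161 reads, a ratio of 2.02 (1.69 to 2.41). At 48 hpf it was 13.9 in the KO-labelled library against 16.6 in the WT library, a ratio of 0.838 (0.733 to 0.957). Rescaling left the ratio of 24 hpf at 1.67 (1.40 to 2.00) and that of 48 hpf at 0.831 (0.727 to 0.949), each on the same side of 1.

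In contrast, cyp26c1 (ENSDARG00000056029, chromosome 17), which in vertebrates is active in the hindbrain and head, was higher in the KO-labelled library at both times. It had 10.2 FPKM in the KO-labelled library against 5.17 FPKM in the WT library at 24 hpf, and 8.57 FPKM against 4.89 FPKM in the KO-labelled and WT libraries at 48 hpf. The ratios were 1.98 (1.66 to 2.38) and 1.75 (1.52 to 2.02), and after rescaling they were 1.64 (1.37 to 1.97) and 1.74 (1.51 to 2.01).

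The third enzyme, cyp26b1 (ENSDARG00000077121, chromosome 7), is known for its part in the hindbrain and the cartilage of the head. Its FPKM was 9.41 in the KO-labelled library and 9.81 in the WT library at 24 hpf, with a ratio of 0.959 (0.829 to 1.11), and 13.7 in the KO-labelled library and 11.2 in the WT library at 48 hpf, with a ratio of 1.22 (1.11 to 1.36). After rescaling, the interval at 24 hpf lay below 1, with a ratio of 0.795 (0.687 to 0.921).

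The binding proteins showed the largest differences. As given above, crabp2a (ENSDARG00000073978, chromosome 16) was higher in the KO-labelled library at both times, by 2.21 times (2.04 to 2.39) at 24 hpf, from 3365 reads and 771 reads, and by 2.11 times (1.96 to 2.27) at 48 hpf. After rescaling these ratios were 1.83 (1.69 to 1.98) and 2.09 (1.95 to 2.25). Its duplicate crabp2b (ENSDARG00000030449, chromosome 19) was higher by less. It had 13.7 FPKM in the KO-labelled library against 10.2 FPKM in the WT library at 24 hpf, and 15.4 FPKM against 12.2 FPKM in the KO-labelled and WT libraries at 48 hpf. The ratios were 1.34 (1.16 to 1.55) and 1.26 (1.13 to 1.39), and the interval at 24 hpf reached below 1 after rescaling (1.11, 0.964 to 1.28).

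The gene crabp1a (ENSDARG00000045926, chromosome 25), whose mammalian counterpart holds retinoic acid in the cytoplasm and passes it to breakdown, stood apart from the others. At 48 hpf it had 5.04 FPKM from 70 reads in the KO-labelled library against 29.7 FPKM from 402 reads in the WT library, a ratio of 0.170 (0.130 to 0.219). At 24 hpf its 6 reads and 1 read in the KO-labelled and WT libraries gave a ratio of 3.03 with an interval of 0.368 to 139, so no difference was detectable at this depth. The crabp genes are families of related sequence, and whether reads were split between copies was not tested. The further copy crabp1b, named after its values were seen, had 19.9 FPKM in the KO-labelled library against 13.7 FPKM in the WT library at 24 hpf, and 27.0 FPKM against 18.1 FPKM in the KO-labelled and WT libraries at 48 hpf. Its ratios of 1.45 (1.14 to 1.86) and 1.49 (1.27 to 1.75) were both above 1, the opposite of crabp1a at 48 hpf. Its log2 ratios of FPKM plus 1 were 0.51 and 0.55 as deposited, and 0.25 and 0.54 after rescaling. No rescaled interval is given for it.

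**Figure D2:**
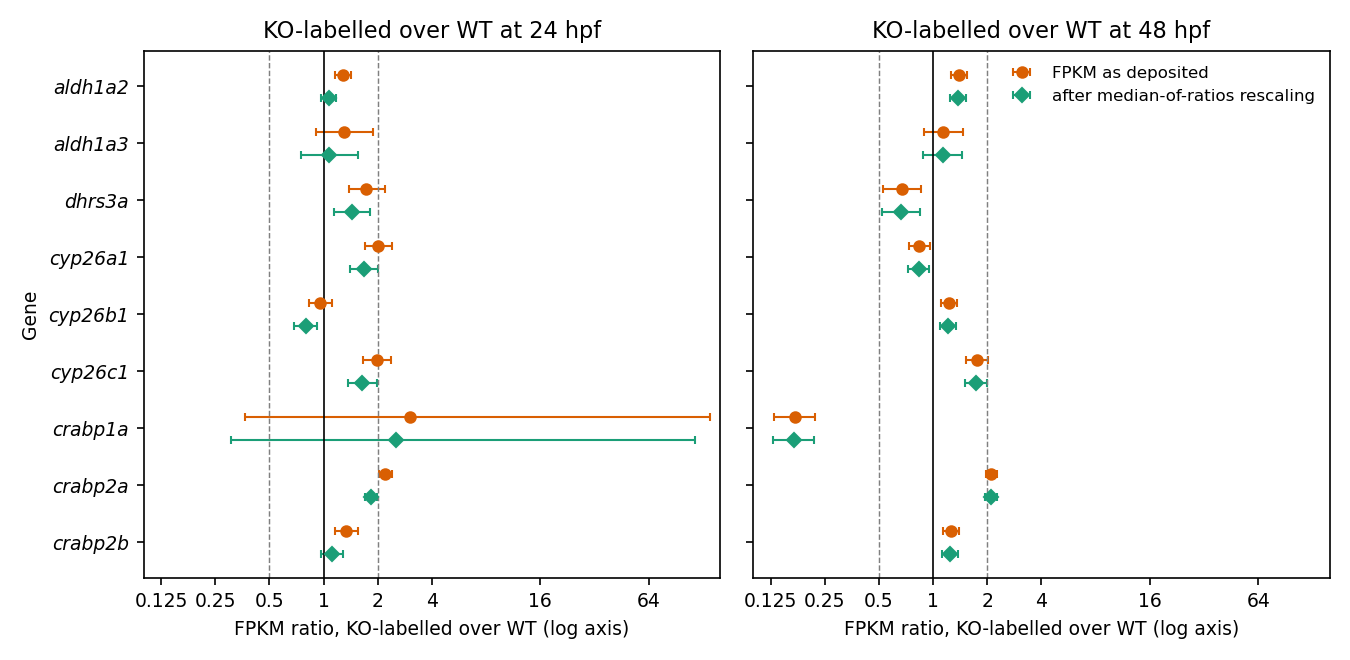
Ratio of FPKM in the KO-labelled library to the WT library (log axis) at 24 hpf and at 48 hpf, as deposited and after rescaling by median ratios, with 95% exact intervals that cover counting error only. Solid lines mark a ratio of 1 and dashed lines 2-fold. At 48 hpf crabp1a lies far to the left, at 0.170, and crabp2a is to the right of 2 at 2.11.

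Read against the whole table, few of these differences were large. The fold threshold of the study's methods, 2-fold, was applied to log2((KO-labelled + 1)/(WT + 1)) of FPKM, where adding 1 pulls the ratios of weakly expressed genes towards 0. The methods also set an adjusted significance level, which was not applied here. At 24 hpf, 1 of the 9 genes, crabp2a, was at least 2-fold higher in the KO-labelled library, with a log2 ratio of 1.12, where 2.72% of all 26812 genes were that much higher. None of the 9 was 2-fold lower, against 1.32% of all genes. The log2 ratios of cyp26a1 and cyp26c1 were 0.95 and 0.86, just short of the threshold. After rescaling, or with ribosomal RNA genes left out of the library totals, crabp2a also fell short at 24 hpf, with log2 ratios of 0.86 and 0.95. At 48 hpf, crabp2a was again past 2-fold, with a log2 ratio of 1.05 and 2.56% of all genes as background, and crabp1a was at least 2-fold lower, with a log2 ratio of -2.34 and 3.49% of all genes as background.

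In smaller steps, 8 of the 9 log2 ratios were above 0 at 24 hpf. Of these, 6 had an interval above 1, as did 30.1% of the 25395 genes with reads in either library, and none of the 9 had an interval below 1, against 7.69% of those genes. The same 8 were above 0 after rescaling, where 4 of the 9 had an interval above 1 and 1, cyp26b1, below it, against 14.4% and 17.5% of those genes. At 48 hpf 6 were above 0, 5 of them with an interval above 1, where 21.0% of the 25825 genes with reads had one. The 3 below 0, cyp26a1, dhrs3a and crabp1a, all had an interval below 1, where 26.3% of those genes did. After rescaling these counts of 5 and 3 stood beside 20.4% and 26.9% of genes. Such shares depend on the reads of each gene, since genes with few reads have wide intervals. The share of all genes above or below 0 was not counted. Counts of directions, here and for the lists below, therefore stand without that background. The median log2 ratio of the 9 was 0.39 at 24 hpf, where the median over the 17290 genes that reached 1 FPKM in one of the libraries was 0.22, and 0.28 against -0.01 after rescaling. At 48 hpf it was 0.27, where the median of the 18262 genes was -0.05. The genes are not replicates of a condition, and with 1 library a group these counts describe the libraries only.

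Between the times, aldh1a2 and crabp2a were lower at 48 hpf in both genotypes. In the KO-labelled embryos aldh1a2 had a ratio of 48 hpf to 24 hpf of 0.628 (0.577 to 0.683), and in the WT embryos one of 0.579 (0.516 to 0.651). For crabp2a these ratios were 0.647 (0.614 to 0.682) in the KO-labelled and 0.676 (0.616 to 0.743) in the WT embryos. These differences exceeded the counting error. After rescaling the ratios of aldh1a2 were 0.699 (0.642 to 0.760) in the KO-labelled and 0.539 (0.480 to 0.605) in the WT embryos, and those of crabp2a 0.720 (0.683 to 0.759) and 0.629 (0.573 to 0.691). The gene cyp26b1 was higher at 48 hpf in the KO-labelled embryos (1.46, 1.30 to 1.62), while its ratio in the WT embryos was 1.14 (0.991 to 1.31). For crabp2b the ratios were 1.12 (1.01 to 1.24) and 1.20 (1.04 to 1.38), and the interval in the WT embryos included 1 after rescaling. For cyp26c1 they were 0.838 (0.745 to 0.942) in the KO-labelled embryos, where the interval included 1 after rescaling, and 0.946 (0.778 to 1.16) in the WT embryos. Those of aldh1a3, 1.15 (0.888 to 1.48) and 1.31 (0.918 to 1.89), could not be told from 1.

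The time courses of cyp26a1, dhrs3a and crabp1a differed more. For cyp26a1 the ratio of 48 hpf to 24 hpf was 0.599 (0.528 to 0.679) in the KO-labelled embryos, below 1, and 1.44 (1.20 to 1.73) in the WT embryos, above 1. For dhrs3a it was 0.316 (0.254 to 0.391) in the KO-labelled embryos and 0.815 (0.633 to 1.05) in the WT embryos, or 0.758 (0.589 to 0.980) in the WT embryos after rescaling. The level of crabp1a was 10.8 times (4.72 to 30.4) higher at 48 hpf than at 24 hpf in the KO-labelled embryos and 193 times (34.4 to 7630) higher in the WT embryos, the second ratio resting on the 1 read of 24 hpf. The comparisons in time and those between genotypes share libraries, so a single library that stands apart enters several of them.

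On the scale of FPKM plus 1, crabp1a was at least 2-fold higher at 48 hpf in the KO-labelled embryos, as were 6.34% of all genes, and in the WT embryos, as were 12.4% of all genes. The gene dhrs3a was at least 2-fold lower at 48 hpf in the KO-labelled embryos, as were 3.54% of all genes. No member was that much lower in the WT embryos, where 4.45% of all genes were.

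Ratios between members of 1 library do not depend on the scaling between libraries. At 24 hpf the level of cyp26a1 was 0.928 times that of aldh1a2 in the KO-labelled library and 0.591 times in the WT library, so that the proportion in the KO-labelled library was 1.57 times that in the WT library (95% exact interval 1.28 to 1.93). At 48 hpf the order turned round: cyp26a1 stood at 0.885 times aldh1a2 in the KO-labelled library and at 1.47 times in the WT library, a quotient of 0.602 (0.509 to 0.712). The dhrs3a to aldh1a2 proportion behaved likewise, with quotients of 1.35 (1.05 to 1.74) at 24 hpf and 0.482 (0.370 to 0.627) at 48 hpf. The cyp26c1 to aldh1a2 proportion did not turn round, with quotients of 1.54 (1.25 to 1.90) at 24 hpf and 1.26 (1.06 to 1.501) at 48 hpf. Summed over the family, cyp26 FPKM was 1.51 times the aldh1a FPKM in the KO-labelled library and 1.20 times in the WT library at 24 hpf, and 1.84 times and 2.22 times in the KO-labelled and WT libraries at 48 hpf.

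Within the cyp26 family the make-up shifted with the library. The share of cyp26a1 in the summed cyp26 FPKM was 54.2% in the KO-labelled library and 43.5% in the WT library at 24 hpf, and 38.4% and 50.8% in the KO-labelled and WT libraries at 48 hpf. For cyp26c1 the share was higher in the KO-labelled library at both times, at 23.9% against 19.5% in the WT library at 24 hpf and 23.7% against 14.97% at 48 hpf. Its proportion to cyp26b1 was 2.06 times (1.63 to 2.61) that of the WT library at 24 hpf and 1.43 times (1.20 to 1.71) at 48 hpf.

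Among the 3 crabp members, crabp1b not counted, the proportion of crabp2a to crabp2b was larger in the KO-labelled library by about the same factor at both times, 1.65 (1.40 to 1.94) at 24 hpf and 1.68 (1.48 to 1.91) at 48 hpf. The share of crabp1a in the summed crabp FPKM was below 0.5% in both libraries of 24 hpf. At 48 hpf it was 6.48% in the KO-labelled library and 43.0% in the WT library. Because crabp2a was higher where crabp1a was lower, the crabp sums of 48 hpf were close, at 77.8 FPKM in the KO-labelled library and 69.1 FPKM in the WT library.

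**Figure D3:**
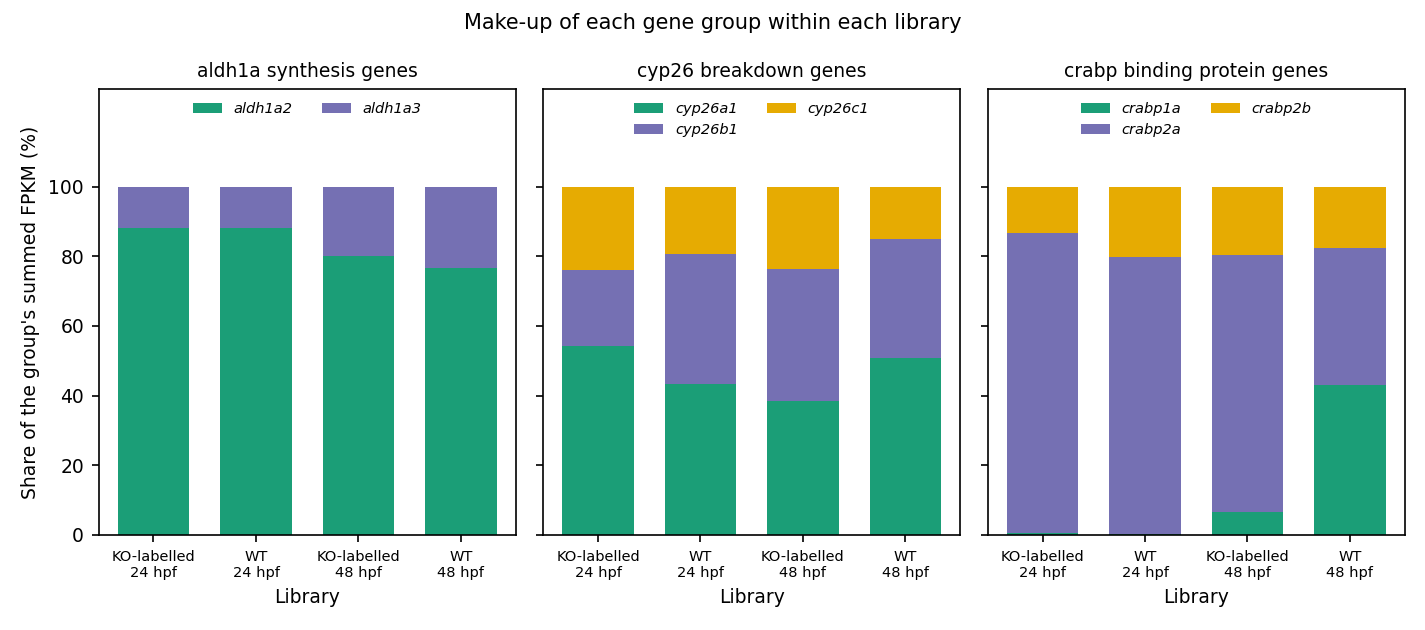
Share of each gene in the summed FPKM of the aldh1a, cyp26 and crabp genes, within each KO-labelled and WT library of 24 hpf and 48 hpf. In the WT library of 48 hpf crabp1a makes up 43.0% of the crabp sum, against 6.48% in the KO-labelled library of that time.

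Further genes of the pathway were read from lists. Of 21 genes of retinoid uptake, storage and retinol oxidation, none was past 2-fold at 24 hpf and 2 were at least 2-fold lower in the KO-labelled library at 48 hpf. They were rbp2a and rbp2b, which code for cellular retinol-binding proteins, at 0.751 FPKM in the KO-labelled library against 4.62 FPKM in the WT library and at 1.04 FPKM against 5.10 FPKM, from 8 to 86 reads. Of all genes, 3.49% were at least 2-fold lower at 48 hpf. The median log2 ratio of the list was 0.07 at 24 hpf and -0.06 at 48 hpf, or 0 and -0.08 after rescaling. Only 14 of the 21 genes had a mean FPKM of at least 1, and adding 1 pulls the others towards 0. With a pseudocount of 0.1 FPKM the medians were 0.13 at 24 hpf and -0.24 at 48 hpf. Chosen after their values were seen, rdh10b, an enzyme that oxidises retinol to retinaldehyde, and dhrs3b, the duplicate of dhrs3a, are named as neighbours of the members. The level of rdh10b was 13.1 FPKM in the KO-labelled library against 7.30 FPKM in the WT library at 24 hpf and 7.74 FPKM against 3.97 FPKM at 48 hpf, with ratios of 1.80 (1.43 to 2.28) and 1.95 (1.54 to 2.47). That of dhrs3b was 28.3 FPKM against 15.9 FPKM at 24 hpf and 10.3 FPKM against 10.8 FPKM at 48 hpf, so that its excess of 1.78 times (1.52 to 2.08) at 24 hpf had no counterpart at 48 hpf (0.952, 0.807 to 1.12). Rescaling lowered the log2 ratio of FPKM plus 1 at 24 hpf from 0.77 to 0.52 for rdh10b and from 0.79 to 0.53 for dhrs3b. Others of the list were lower, such as rbp4, also named after its values were seen. It had 23.0 FPKM in the KO-labelled library against 35.4 FPKM in the WT library at 24 hpf, a ratio of 0.648 (0.569 to 0.738). At 48 hpf it had 92.1 FPKM against 152.7 FPKM, a ratio of 0.603 (0.573 to 0.636). Of the 21 genes, 6 had an interval above 1 and 4 below at 24 hpf, and 3 above and 5 below at 48 hpf. The shares over all genes with reads were 30.1% and 7.69%, and 21.0% and 26.3%.

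The receptors gave a different count at each time. Of the 10 genes for RAR and RXR, none was past 2-fold in either comparison as deposited. After rescaling rxrab, named after its values were seen, was past it at 24 hpf, with 0.868 FPKM in the KO-labelled library against 2.42 FPKM in the WT library and a rescaled log2 ratio of -1.03. On that scale 3.46% of all genes were past 2-fold at 24 hpf in either direction. At 48 hpf rxrab was higher in the KO-labelled library, at 1.57 FPKM against 0.636 FPKM, a ratio of 2.47 (1.38 to 4.61). At 24 hpf 7 of the 10 genes had a log2 ratio above 0, a direction that depended on the scaling, since 2 did after rescaling. At 48 hpf 8 of 10 were lower in the KO-labelled library. An interval below 1 was found for 6 of them, against 26.3% of all genes with reads. Only rxrab had one above 1, against 21.0% of those genes. The median log2 ratio of the 10 was -0.28 as deposited and -0.29 after rescaling. The most abundant, rarga, had 27.3 FPKM in the KO-labelled library against 21.8 FPKM in the WT library at 24 hpf, and 21.7 FPKM against 27.0 FPKM at 48 hpf. For rxrba the values were 20.2 FPKM against 17.9 FPKM and 17.0 FPKM against 20.5 FPKM.

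For the 10 Hox genes that retinoic acid is known to induce in the hindbrain and spinal cord, the directions at 24 hpf depended on the scaling. As deposited, 5 of the 10 were above 0 and 5 below, with a median log2 ratio of 0.02. After rescaling 2 were above 0 and 8 below, with a median of -0.24. At 48 hpf 6 were above 0 on both scales. The only gene past 2-fold was hoxb1a, a gene of the fourth rhombomere, at 3.83 FPKM in the KO-labelled library against 1.41 FPKM in the WT library at 48 hpf, a ratio of 2.72 (1.81 to 4.18). Its log2 ratio of 1.00 lay on the threshold, where 2.56% of all genes were at least 2-fold higher. It fell just short after rescaling. At 24 hpf it had 14.96 FPKM in the KO-labelled library against 9.99 FPKM in the WT library. Among 5 genes of the rhombomeres, the best expressed, epha4a and mafba, had log2 ratios of 0.17 and 0.18 at 24 hpf and of 0.19 and -0.31 at 48 hpf. Both values of 24 hpf were below 0 after rescaling. At each time 3 of the 5 were higher and 2 lower, with a median of 0.17, or -0.09 at 24 hpf and 0.16 at 48 hpf after rescaling. The largest difference of the 5 was that of egr2b, named after its values were seen. Its ratios were 2.21 (1.59 to 3.13) at 24 hpf and 0.511 (0.290 to 0.875) at 48 hpf.

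Markers of tissues that carry the members also differed between the libraries. Levels were measured in whole embryos, in which fewer cells of a type and less RNA per cell cannot be told apart. The 11 tailbud and presomitic genes were listed for the tissue where cyp26a1 acts as a sink. They summed to 85.0 FPKM in the KO-labelled library against 52.3 FPKM in the WT library at 24 hpf, with 11 of 11 higher and a median log2 ratio of 0.56. After rescaling 10 of 11 were higher and the median was 0.34. At 48 hpf they summed to 23.5 FPKM and 15.3 FPKM in the KO-labelled and WT libraries, with 9 of 11 higher and 1 gene of the list at 0 in the WT library. The median log2 ratio was 0.31 at 48 hpf. Of the 11 intervals, 9 were above 1 at 24 hpf, against 30.1% of all genes with reads. At 48 hpf 4 were above 1, against 21.0%, and the other 7 included 1. The 4 were ta, wnt3a, fgf8a and her1, the last from 7 reads against 0. Most of the sum at 48 hpf came from ta, wnt3a and fgf8a. They had 11.5, 4.59 and 3.03 FPKM in the KO-labelled library against 8.98, 1.94 and 1.24 FPKM in the WT library. Whether the list still reads the tailbud at 48 hpf was not tested. Only noto, a notochord gene of the tailbud, was past 2-fold, at 4.80 FPKM in the KO-labelled library against 1.63 FPKM in the WT library at 24 hpf. Of 6 somite genes, ripply1 was past 2-fold at 24 hpf, at 8.72 FPKM against 3.85 FPKM. Of all genes, 2.72% were at least 2-fold higher at 24 hpf. Neither noto nor ripply1 was past it after rescaling, with log2 ratios of 0.94 and 0.77. The median of the somite list was 0.30, or 0.04 after rescaling. Their part in the levels of cyp26a1 and aldh1a2 was not tested.

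Markers of the eye, a site of retinoic acid synthesis and breakdown, differed too. The 9 lens genes summed to 40.2 FPKM in the KO-labelled library against 83.2 FPKM in the WT library at 24 hpf, and to 1036 FPKM against 2471 FPKM at 48 hpf, with 9 of 9 lower at both times. At 24 hpf 7 of the 9 intervals were below 1, against 7.69% of all genes with reads. The other 2 included 1, from at most 6 reads a library. At 48 hpf all 9 were below 1, against 26.3%. The crystallin genes cryaa, cryba2a, cryba4, crybb1, crybb1l1 and crygn2, which code for the refractive proteins of the lens, were at least 2-fold lower at 48 hpf, and cryba4 and crybb1l1 at 24 hpf too. The largest of them, cryba4, had 308.5 FPKM in the KO-labelled library against 767.8 FPKM in the WT library at 48 hpf. Of all genes, 3.49% were at least 2-fold lower at 48 hpf and 1.32% at 24 hpf. After rescaling 5 of the 9 lens genes were that much lower at 24 hpf, where 3.46% of all genes were past 2-fold in either direction. The 11 retina genes summed to 77.2 FPKM in the KO-labelled library and 65.1 FPKM in the WT library at 24 hpf, and to 119.8 FPKM and 252 FPKM at 48 hpf. Most of the gap at 48 hpf came from vsx1, a gene of differentiating bipolar cells, with 11.8 FPKM in the KO-labelled library against 119 FPKM in the WT library. The retinal progenitor gene rx1 went the other way, at 16.9 FPKM in the KO-labelled library against 5.50 FPKM in the WT library. At least 2-fold higher at 48 hpf were 2.56% of all genes. At 24 hpf rx2 was lower in the KO-labelled library, at 0.752 FPKM against 4.67 FPKM. The retina list as a whole was mixed at that time, with 6 of 11 higher and 5 lower. Of these, 4 had an interval above 1 and 3 below it, against 30.1% and 7.69% of all genes with reads. The median log2 ratio of the list was 0.14, or -0.11 after rescaling. At 48 hpf 3 were higher and 8 lower, with a median of -0.33. In the 8 genes of the pharyngeal arches and cartilage, led by col2a1a and dlx3b, none was past 2-fold. Their medians were -0.05 at 24 hpf and -0.04 at 48 hpf, or -0.27 and -0.05 after rescaling. Whether these tissues account for any difference of the 9 genes was not tested.

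**Figure D4:**
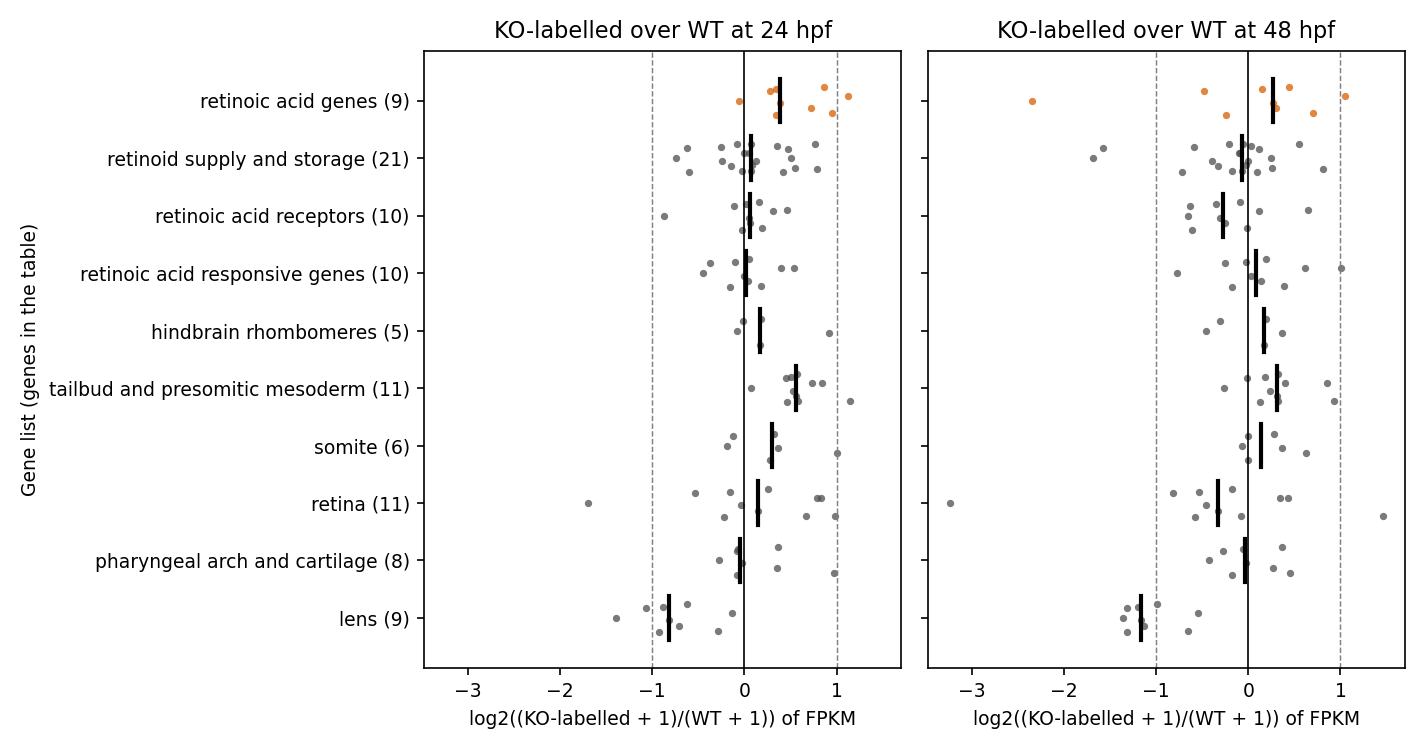
Log2 ratios of FPKM plus 1, KO-labelled over WT, for the 9 retinoic acid genes and for the genes of 9 further lists at 24 hpf and at 48 hpf. Each point is a gene, black bars are medians and dashed lines mark 2-fold. At 48 hpf crabp1a lies at -2.34, while the receptors have a median of -0.28 and the lens genes one of -1.16.

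The genes with the closest patterns were sought by the distance between log2(FPKM + 1) values, each centred on its mean over the 4 libraries, among 17415 other genes with a mean FPKM of at least 1. Nearest to aldh1a2 were ccdc58, si:ch211-241d21.5 and b3gnt2b, at distances of 0.03 to 0.04. Nearest to cyp26a1 were miox, si:rp71-17i16.6 and znf1136, at 0.06 to 0.09, and nearest to cyp26b1 were keap1b, clic1 and si:dkey-6n6.1, at 0.03 to 0.05. Over only 4 libraries such closeness is common: 556 genes lay within 0.25 of aldh1a2, 370 within 0.25 of cyp26b1 and 95 within 0.25 of cyp26a1.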

How the data were processed

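RNA sequencing of whole zebrafish embryos was analysed in 4 libraries, 1 per genotype and time point. Per the study's methods, reads were checked with FastQC, filtered with NGSQC, aligned with HISAT2 and quantified with StringTie, and the authors called differences with DESeq. The submitters' processing notes give FastQC 0.11.5, HISAT2 2.1.0, StringTie 1.3.3b and DESeq 1.28.0, and a mouse genome build that cannot belong to the zebrafish Ensembl identifiers of the table. The zebrafish build is not given in the sources used here, so chromosomes are printed without coordinates. The labels name a SMARTER library kit and the methods an NEBNext kit. The deposited table gives FPKM, computed by the authors, for 26812 genes. No sequence is shown, since none was at hand for these genes.

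Values were computed in Python 3.11.15 with pandas 2.3.3, scipy 1.17.1 and numpy 2.4.6, and plotted with matplotlib 3.10.9. Log2 ratios were log2((KO-labelled + 1)/(WT + 1)) of FPKM. Library totals came from the FPKM step of 1 read in small RNA genes whose length equals their span. The reads behind each value are the smallest whole numbers, within 0.002, for a whole-number gene length, found for 100% of genes, and they summed to between 98.2% and 98.5% of the totals. Multiples of these reads are also possible and would give tighter intervals. The 95% intervals are exact (Clopper-Pearson) for ratios, Poisson for levels and conditional exact for quotients of ratios. Of 8 gene pairs compared within libraries, some are not given above. For aldh1a2 to aldh1a3 the quotients were 0.990 (0.672 to 1.44) at 24 hpf and 1.22 (0.932 to 1.61) at 48 hpf, both with intervals that included 1. For crabp1a to crabp2a they were 1.37 (0.166 to 63.3) and 0.0804 (0.0609 to 0.105). For cyp26a1 to cyp26b1 they were 2.10 (1.67 to 2.65) and 0.685 (0.578 to 0.811). The recovery of reads and the 2-fold calls were tested on simulated data. These used the gene lengths and library totals found here, so that test could not tell whether multiples of the reads were the true ones. No p-value was computed, because each group had 1 library.

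The 9 genes, the further lists (94 genes, 91 of them matched to the table once) and the alternatives were chosen with earlier results of these data known. A few genes are not reported here and were left out of the lists. Named were the 9 genes, KDM5A, every list gene past 2-fold in either comparison of KO-labelled with WT or, where a list had none, its 2 best expressed genes, and the 3 genes closest in pattern to aldh1a2, cyp26a1 and cyp26b1. Outside this rule crabp1b, rdh10b, dhrs3b, rbp4, rxrab, egr2b, ta, wnt3a, fgf8a and her1 were named after their values were seen. The settings varied were a pseudocount of 0.1 FPKM, median-of-ratios rescaling, totals without 232 genes that are ribosomal RNA genes or lie within 15 kb of a 5.8S rRNA gene, thresholds of 1.5-fold and 3-fold, a mean FPKM of at least 1 and protein-coding genes only.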

Additional observations from a re-analysis of the deposited data

Results flagged for a closer look

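Of the 30 genes examined (the 9 retinoic acid genes, KDM5A and the genes named by rule from the lists), 11 had a log2 ratio of KO-labelled to WT above 0 at one time and below 0 at the other. The share of all genes with opposite directions was not counted, so this count has no background. The median log2 ratio over genes that reached 1 FPKM was 0.22 at 24 hpf and -0.05 at 48 hpf. After rescaling it was -0.01 and -0.06. The 11 genes were found by direction alone, the differences between times were not tested, and values are the log2 ratio of 48 hpf minus that of 24 hpf.

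Among the 9 genes this difference was -2.69 for crabp1a, -1.20 for dhrs3a, -1.19 for cyp26a1 and 0.32 for cyp26b1. The value of crabp1a rests on 1 read in the WT library of 24 hpf, and the interval of cyp26b1 at 24 hpf included a ratio of 1. All 4 kept opposite directions after rescaling and with totals without ribosomal RNA genes. Of the others, it was -2.23 for rbp2a, 1.61 for rx1, -0.67 for KDM5A, -0.62 for rarga and 0.34 for col2a1a, which also kept opposite directions after rescaling, and -0.41 for rxrba and -0.48 for mafba, which were below 0 at both times after it. The intervals of rbp2a, rx1, rxrba and mafba at 24 hpf also included a ratio of 1, so their directions at that time were within the counting error. For rarga the log2 ratio at 24 hpf was 0.31 as deposited but only 0.05 after rescaling, and no rescaled interval is given for it.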

How the results depend on the processing

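The directions of all 36 log2 ratios of the 9 genes (4 comparisons) were kept after median-of-ratios rescaling and with totals without ribosomal RNA genes. No value past 2-fold reversed. A pseudocount cannot change a direction, so the setting of 0.1 FPKM is no check of directions. Between KO-labelled and WT at 48 hpf, rescaling shifts log2 ratios by only -0.01, so it could hardly change a direction there. The count past 2-fold at 24 hpf was less stable: 1 as reported (4.04% of all genes in either direction), 3 with a pseudocount of 0.1 FPKM (17.1% of all genes), 0 after rescaling (3.46%), 0 without ribosomal RNA genes (3.74%), 4 at 1.5-fold (15.2%) and 0 at 3-fold (1.23%). The median log2 ratio at 24 hpf was 0.78 with the smaller pseudocount. At 48 hpf the count of 2 (6.05% of all genes) became 1 at 3-fold (1.41%). Between times, the count in KO-labelled embryos was 5 at 1.5-fold (25.5% of all genes) and 1 at 3-fold (3.36%) in place of 2 (9.87%), and in WT embryos 2 at 1.5-fold (33.0%) in place of 1 (16.9%). No paired analysis was possible because only 1 library was made for each group. Depth limited crabp1a at 24 hpf, with 7 reads in all, and aldh1a3, with 44 to 140 reads a library.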
